A study of Mus musculus with 20 samples.

Results

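RNA of primary neural progenitor cells (NPC) was compared with RNA of embryonic stem (ES) cells in mouse, in 4 of the 20 samples of the series, 2 libraries of each kind, chosen by their labels alone. The NPC came from whole brains of 129SvJae x C57BL/6 mice at postnatal day 1 that carried the Sox2-eGFP reporter. They were grown as neurospheres in medium with EGF and FGF, passaged, and plated on poly-D-lysine and laminin; the sex of the animals is not given. The ES cells were the male line V6.5, also 129SvJae x C57BL/6. They were expanded on mitomycin-treated feeder fibroblasts in medium with serum and LIF and then moved to gelatin to remove the feeders. V6.5 is a single line, and the NPC carry a reporter allele that the ES cells lack. Neither kind of replicate is stated to be a separate culture. The p-values therefore reflect only how far replicate libraries differ, over all 10 RNA libraries of the fit, and that spread may be technical. In bulk RNA, fewer cells of a type and less RNA per cell cannot be told apart.

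Reads assigned to a transcript model numbered 1150624 and 3644461 in the NPC libraries, against 17286063 and 3729837 in the ES libraries. Reads that fell in no model made up 86.6% and 59.3% of uniquely aligned reads in NPC, against 26.5% and 81.5% in ES cells, and each count below was also computed without the NPC and the ES library in which that share was highest. Levels are in CPM, the reads of a model relative to all assigned reads of its library after TMM scaling. Reads that overlapped several models were set aside as ambiguous in the files, so a level is a lower limit for a gene with many models, and levels are compared between groups and not between genes. Differences are log2 values of NPC minus ES with a standard error (SE), computed as given under the processing below. A model was called higher or lower where the Benjamini-Hochberg adjusted p of edgeR's quasi-likelihood test was under 0.05. Where a gene had no read in one group, a fold, if given, is a lower limit, computed against 3 counts per library (2.51 CPM in NPC, 0.790 CPM in ES cells). With 1 to 3 reads, a ratio, if given, has its 95% interval, which covers counting error only. For some such genes only the levels are given. Where the ES level is not far above 2.51 CPM, no read in NPC allows only a small lower limit. For each called gene named below, both libraries of one group lay above both of the other. This does not cover the genes named at the end because their direction turned under an alternative. Overlapping genes, near-identical copies and antisense partners are uncertain, since the counting may have split or merged their reads.

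Mouse ES cells, which derive from the inner cell mass of the blastocyst, are kept pluripotent by a transcription factor circuit around OCT4 (Pou5f1) and SOX2 and, in serum, by LIF signalling through STAT3. They grow as compact epithelial colonies joined by E-cadherin and divide with a short first gap phase. Neural progenitors of the radial glial lineage use SOX and POU3F factors, Notch signalling between neighbouring cells, N-cadherin junctions and the mitogens EGF and FGF to go on dividing, and can give rise to neurons, astrocytes and oligodendrocytes.

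Of the 11031 models tested, 3013 were higher in NPC (27.3%) and 3716 lower (33.7%), and 2343 (21.2%) and 2874 (26.1%) were so by at least 2-fold; 61.0% were called in either direction. The median difference over all models tested was -0.20 on the log2 scale, and a list's median is to be read against it. Counts of a list are to be read against the shares above, so members in both directions do not by themselves set a list apart. Some genes belong to several lists, such as Hes1 among radial glia and Notch genes, so the lists are not independent. A count given with a library left out is not to be read against these shares. Calls over all models changed in those fits as well, as given at the end. Counts below cover the members that passed the low-count filter; a member that is high in one group only could pass through that group and then had to differ, so a count describes these libraries and is no evidence for the list as a whole. Lists in which many more members were higher in NPC than the 27.3% of all models included oligodendrocyte precursor and radial glia genes. Adhesion proteins of the immunoglobulin and protocadherin type, SOX factors, guidance molecules and Notch pathway genes were others. So were matrix proteoglycans, ion channels, and brain homeobox and LIM genes. Lists in which many more were lower than 33.7% were those of pluripotency, germline, ribosome biogenesis, cell junction, DNA replication, amino acid, DNA methylation and glycolysis genes.

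**Figure D1:**
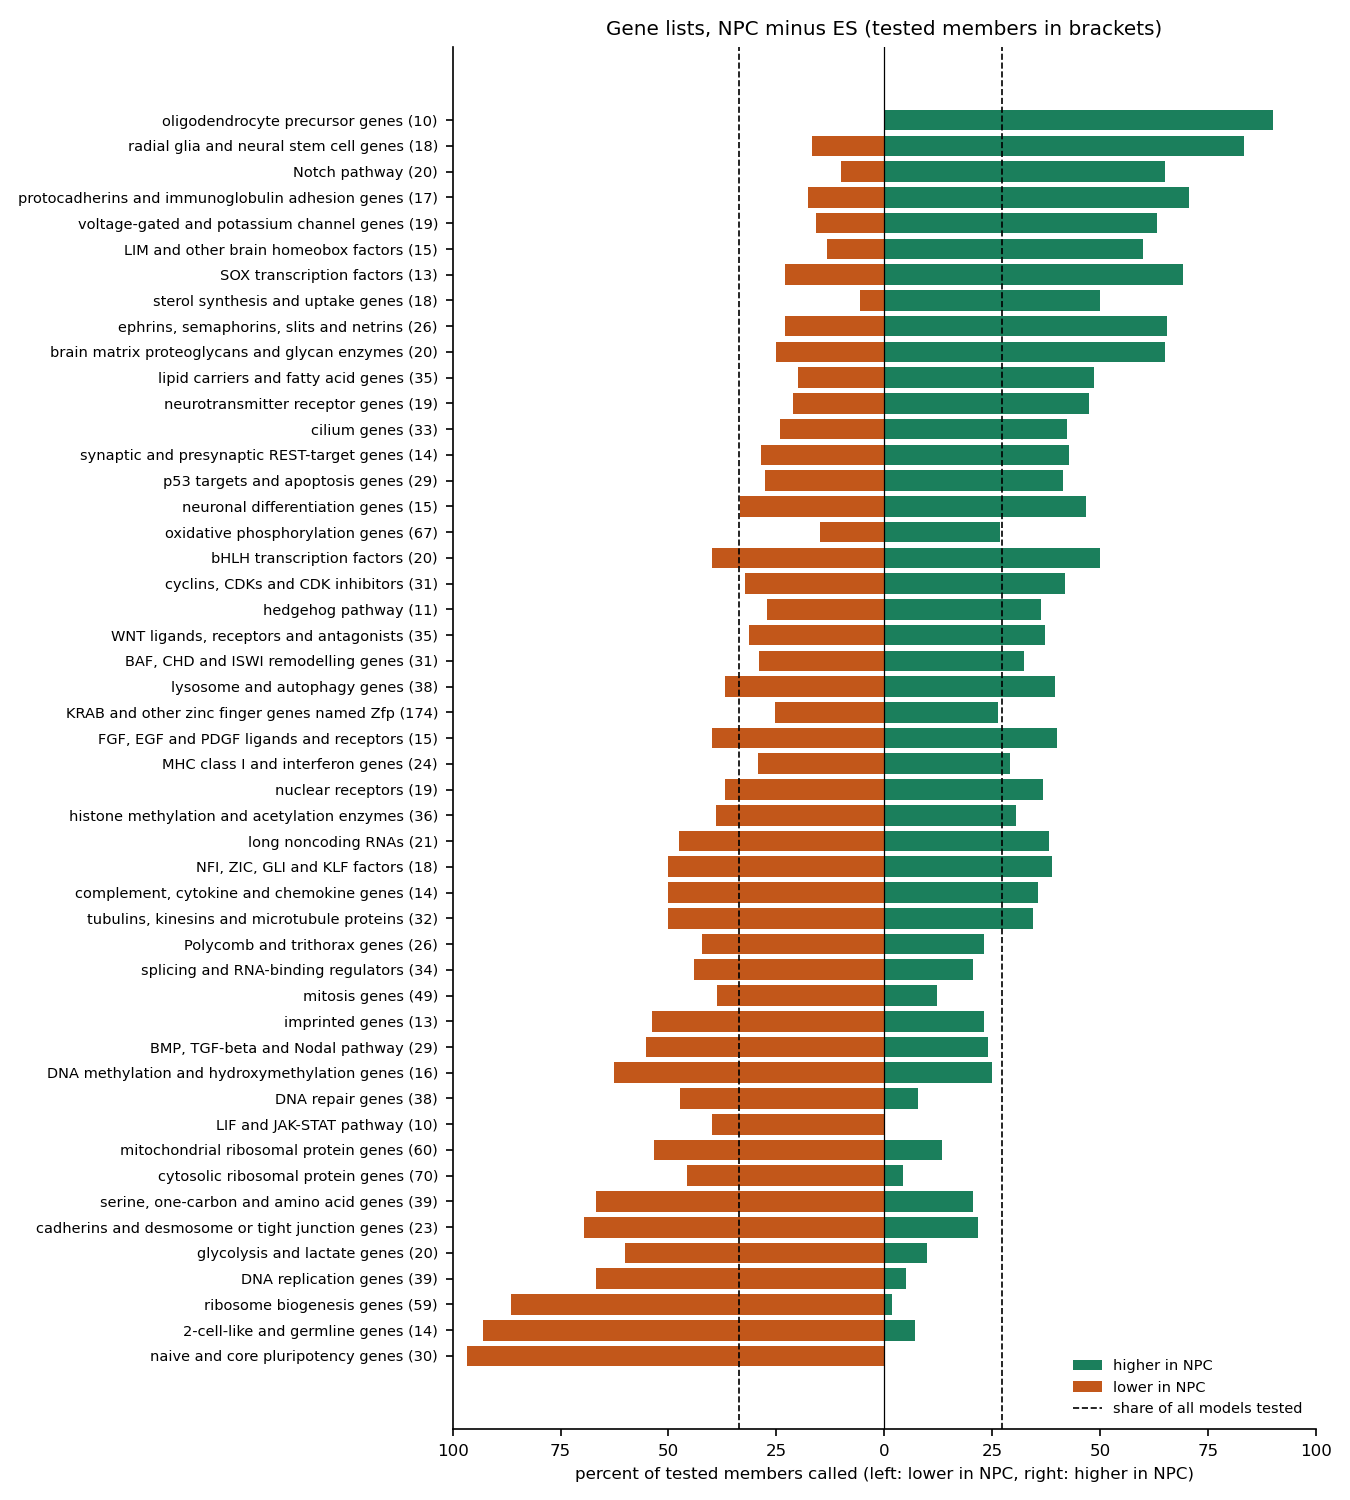
Share of tested members of each list (number in brackets) that were higher in NPC (right, green) or lower in NPC (left, orange), in percent; dashed lines mark the shares over all models tested, 27.3% higher and 33.7% lower. Lists with at least 10 tested members are shown, from oligodendrocyte precursor genes, with 9 of 10 higher, down to pluripotency genes, with 29 of 30 lower.

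Most junction genes of epithelial cells were at or near 0 in NPC, while 5 genes of the list, cadherins among them, were higher there. Of 38 listed cadherin, desmosome and tight junction genes, 23 had a named model and all 23 of these were tested: 16 were lower and 5 higher in NPC, and 12 had no read in either NPC library. Cdh1, which encodes E-cadherin, the adherens junction protein of epithelia, had 0 and 0 CPM in the NPC libraries and 867 and 926 CPM in the ES libraries, at least 357-fold lower in NPC (adjusted p = 8.96e-24). Cdh2, the N-cadherin of neuroepithelium, went the other way, with 174 and 151 CPM in NPC and 32.2 and 30.8 CPM in ES cells (log2 difference 2.34 ± 0.17, adjusted p = 2.24e-13). The groups did not overlap for either gene, but ES cells held Cdh2 RNA as well, whereas no Cdh1 read was found in NPC. Cdh4, Cdh13 and Cdh20 were higher in NPC by larger factors. Cdh4, the R-cadherin of brain and retina, had 307 and 312 CPM in NPC and 5.56 and 4.74 CPM in ES cells (5.80 ± 0.19). Cdh13, an anchored cadherin without a cytoplasmic tail, had 72.8 and 85.8 CPM in NPC and 1.40 and 2.63 CPM in ES cells (5.37 ± 0.30). Cdh20 had 71.2 and 76.2 CPM in NPC and 0.281 and 0.527 CPM in ES cells (7.02 ± 0.40).

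Tight junction and epithelial surface genes followed Cdh1. Epcam, an epithelial surface adhesion protein, had 0.837 and 0.290 CPM in NPC, 2 reads in all, and 371 and 345 CPM in ES cells, a ratio of 852 (95% counting interval 236 to 7034) in favour of ES cells. The claudins Cldn4 and Cldn6, strand proteins of tight junctions, had no read in NPC; Cldn4 had 140.4 and 166 CPM and Cldn6 83.9 and 95.6 CPM in ES cells, so that they were at least 60.9-fold and 35.7-fold lower in NPC. Grhl2, a transcription factor of epithelial genes, had no read in NPC and 24.1 and 28.7 CPM in ES cells (at least 10.51-fold lower). F11r, a junctional adhesion molecule, had 1.67 and 0.869 CPM in NPC and 143 and 137 CPM in ES cells (-6.73 ± 0.29). The desmosomal plaque protein gene Pkp2 had 2.51 and 1.16 CPM in NPC and 93.6 and 76.6 CPM in ES cells (-5.61 ± 0.34). Jup (plakoglobin), which serves both desmosomes and cadherin junctions, remained measurable in NPC, with 29.3 and 31.0 CPM there and 161 and 204 CPM in ES cells (-2.57 ± 0.17). The connexin Gjb5, a gap junction channel, also had no read in NPC and 48.0 and 47.7 CPM in ES cells, at least 19.04-fold lower.

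The promoters of these genes are shown to show a short element that some of them hold, the E-box CACCTG, which repressors of the SNAI and ZEB families are known to bind. RefSeq promoter windows, 250 bases before to 50 bases after the start in GRCm38.p6, were at hand for 10 of the 23 members of the junction list, in 11 windows. The element, read on both strands, was in 7 of these 11 windows (63.6%), in 5 of 16 windows (31.2%) of the protocadherin and immunoglobulin list, and in 20.2% of all 32851 windows. The 3 windows below, those of Epcam, Cldn4 and Cldn6, each hold it more than once, and capitals mark it; a match of letters is a description and not a site.
Epcam, GRCm38.p6 chr17:87635729-87636028, plus strand: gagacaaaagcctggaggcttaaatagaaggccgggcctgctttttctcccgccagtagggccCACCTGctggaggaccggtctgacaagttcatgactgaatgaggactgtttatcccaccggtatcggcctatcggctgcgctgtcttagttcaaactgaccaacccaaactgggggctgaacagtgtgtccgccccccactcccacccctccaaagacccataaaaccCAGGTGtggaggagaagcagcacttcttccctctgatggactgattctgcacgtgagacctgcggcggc
Cldn4, GRCm38.p6 chr5:134946885-134947184, minus strand: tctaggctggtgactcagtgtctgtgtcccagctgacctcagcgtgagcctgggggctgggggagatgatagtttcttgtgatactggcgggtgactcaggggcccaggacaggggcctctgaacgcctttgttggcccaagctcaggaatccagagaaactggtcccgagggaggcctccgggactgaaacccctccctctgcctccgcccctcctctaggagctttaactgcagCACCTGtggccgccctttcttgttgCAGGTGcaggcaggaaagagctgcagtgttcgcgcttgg
Cldn6, GRCm38.p6 chr17:23679115-23679414, plus strand: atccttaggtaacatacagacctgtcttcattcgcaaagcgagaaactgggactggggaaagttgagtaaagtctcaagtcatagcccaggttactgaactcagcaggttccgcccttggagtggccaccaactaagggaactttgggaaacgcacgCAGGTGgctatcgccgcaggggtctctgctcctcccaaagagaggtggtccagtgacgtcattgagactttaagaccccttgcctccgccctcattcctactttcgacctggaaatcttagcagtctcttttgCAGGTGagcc

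Radial glia genes were mostly higher, 15 of 18 tested, with 3 lower (median 3.14). Rfx4, a factor of neural tube cilia, had 70.3 and 74.5 CPM in NPC and 0.0561 and 0 CPM in ES cells, 1 read in all, a ratio of 1586 (95% counting interval 283 to 62835). The creatine kinase gene Ckb had 18534 and 23333 CPM in NPC and 570.3 and 682 CPM in ES cells (5.06 ± 0.17), Metrn, a secreted glial factor, 100.5 and 115 CPM in NPC and 3.26 and 7.64 CPM in ES cells (4.53 ± 0.28). The filament gene Vim was higher by 2.74 ± 0.13. The 3 that were lower were Hes1, the glutamine synthetase gene Glul (-1.11 ± 0.13) and Pdpn (-2.50 ± 0.19).

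Within the SOX, POU and other transcription factor families, some members were higher in NPC and others lower. Of 13 tested SOX genes 9 were higher and 3 lower in NPC (median 2.02). Sox8, a factor of the glial SOXE group, had 357 and 445 CPM in NPC and 2.75 and 1.84 CPM in ES cells (7.18 ± 0.21). Sox3, a SOXB1 factor of the early neural plate, had 223 and 248 CPM in NPC and 3.65 and 7.37 CPM in ES cells (5.61 ± 0.23). Its relative Sox1 had 80.4 and 101.4 CPM in NPC and 22.3 and 23.4 CPM in ES cells (2.02 ± 0.16). Sox2, the third SOXB1 gene, had 251 and 247 CPM in NPC and 477 and 576 CPM in ES cells and was lower in NPC (-1.08 ± 0.14, adjusted p = 9.48e-08), so the 3 SOXB1 genes did not share a direction. Only the NPC carry the Sox2-eGFP reporter allele, and its part in the Sox2 level was not tested. The SOXC genes Sox4, Sox11 and Sox12, which act in neural differentiation, were all higher, by 2.46 ± 0.14, 1.32 ± 0.14 and 2.80 ± 0.16. Sox21 had 83.7 and 94.5 CPM in NPC and 4.77 and 7.37 CPM in ES cells (3.96 ± 0.26). Sox15 had no read in NPC and 23.2 and 24.5 CPM in ES cells, at least 9.49-fold lower.

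All 8 tested POU genes were called, 4 in each direction. Pou5f1 (OCT4) had no read in NPC and 1160 and 1117 CPM in ES cells. The class III genes that mark neural progenitors stood on the other side: Pou3f3 (BRN1) had 234 and 294 CPM in NPC and 0.617 and 0.790 CPM in ES cells (8.22 ± 0.27). Pou3f4 had 27.6 and 26.1 CPM in NPC and 0.393 and 0.263 CPM in ES cells (5.48 ± 0.50). Pou3f1 (OCT6) was also present in ES cells, with 380.1 and 433 CPM in NPC and 46.3 and 47.7 CPM in ES cells (3.12 ± 0.14). Pou4f2, a factor of retinal and sensory neurons, had no read in NPC and 18.4 and 25.5 CPM in ES cells, at least 8.75-fold lower.

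Among the other factor lists, 9 of 15 brain homeobox and LIM genes were higher and 2 lower. The LIM-domain cofactor gene Lmo1 had 129 and 183 CPM in NPC and 1.01 and 0.790 CPM in ES cells (7.04 ± 0.29). The forebrain gene Emx2 had 17.6 and 17.7 CPM in NPC and 1.35 and 0.790 CPM in ES cells (3.63 ± 0.46). The midbrain-hindbrain factor Gbx2, which is also a LIF-responsive gene of ES cells, was lower, with 7.53 and 3.77 CPM in NPC and 129 and 140.1 CPM in ES cells (-4.73 ± 0.24). Krüppel-like factors split: Klf12 and Klf13 were higher by 2.86 ± 0.23 and 1.66 ± 0.29, and Klf2, Klf9 and Klf11 lower (-4.08 ± 0.24, -2.53 ± 0.17 and -2.41 ± 0.24) (log2 NPC minus ES). Of 19 nuclear receptor genes 7 were higher and 7 lower (36.8% each, against 27.3% and 33.7% of all models). Nr2f1 (COUP-TFI), a patterning factor of the cortex, had 35.2 and 40.0 CPM in NPC and 0.393 and 1.05 CPM in ES cells (5.62 ± 0.49). The thyroid hormone receptor Thra had 73.7 and 66.6 CPM in NPC and 2.64 and 3.95 CPM in ES cells (4.44 ± 0.30). The basic helix-loop-helix list held 10 higher genes, 6 without ES replicate 1, and 8 lower genes of 20. Its inhibitors of differentiation divided, Id3 being higher (2.65 ± 0.15) and Id1 lower (-1.94 ± 0.16). Epas1, a hypoxia-inducible factor, had 5.02 and 8.11 CPM in NPC and 115 and 135 CPM in ES cells (-4.06 ± 0.22).

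**Figure D2:**
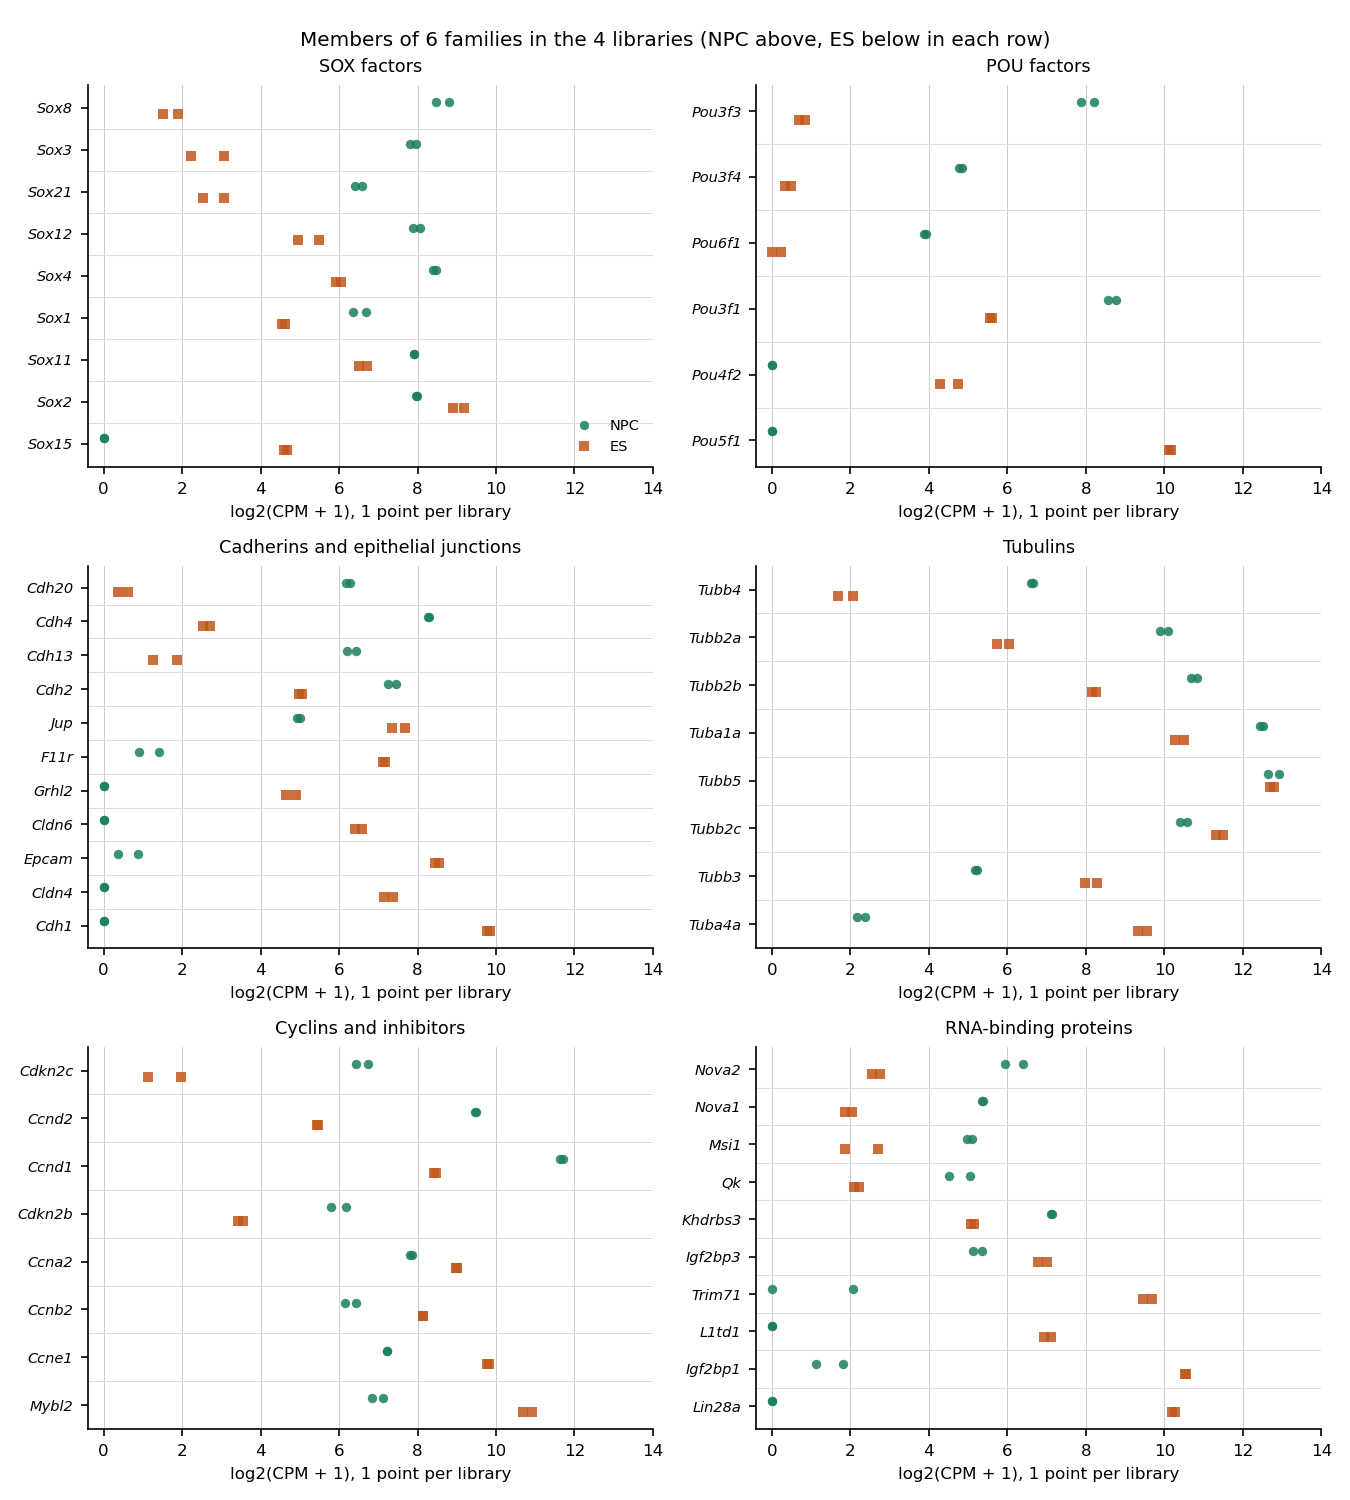
Levels in the 4 libraries, as log2 of CPM plus 1, for members of 6 families; green circles are NPC and orange squares ES cells, 1 point per library. In each family some members lie to the right in NPC and others in ES cells, as Cdh2 (174 and 151 CPM in NPC) and Cdh1 (0 and 0 CPM in NPC) do, while the 2 points of a group lie close together.

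Notch signalling, in which a ligand on one cell activates a receptor on its neighbour, had ligands, receptors, modifiers and targets that were higher in NPC. Of 33 listed genes 22 had a named model and 20 were tested: 13 were higher and 2 lower, with a median of 2.06. Of the ligands, Dll1 had 203 and 236 CPM in NPC and 13.4 and 9.22 CPM in ES cells (4.17 ± 0.19, adjusted p = 4.46e-18), and Dll3, which acts within the cell, had 51.1 and 73.0 CPM in NPC and 7.80 and 6.06 CPM in ES cells (3.10 ± 0.25). Jag1 was little higher, with 36.0 and 41.4 CPM in NPC and 28.2 and 26.1 CPM in ES cells (0.52 ± 0.19), a call lost without either ES library or NPC replicate 2 (0.54, 0.25 and 0.30). Jag2 was lower, with 0 and 3.48 CPM in NPC and 37.0 and 57.1 CPM in ES cells (-4.03 ± 0.37), so the Delta and Jagged ligands did not move alike. The receptors Notch1 and Notch3 were both higher: Notch1 had 429 and 467 CPM in NPC and 36.8 and 56.1 CPM in ES cells (3.32 ± 0.17), and Notch3 115 and 156 CPM in NPC and 39.7 and 47.9 CPM in ES cells (1.67 ± 0.17). Lfng, a glycosyltransferase that tunes the receptor's choice of ligand, had 97.1 and 138 CPM in NPC and 1.01 and 1.58 CPM in ES cells (6.45 ± 0.33). The deltex gene Dtx4 and the feedback inhibitor Nrarp, a Notch target, were higher by 3.74 ± 0.18 and 2.20 ± 0.22, and the target Hey1 by 2.15 ± 0.24. Hes1, the target best known for holding progenitors undifferentiated, was slightly lower: it had 47.7 and 49.3 CPM in NPC and 64.9 and 73.7 CPM in ES cells (-0.50 ± 0.16, adjusted p = 0.00927), and it was not called among models with a mean of at least 20 counts (-0.30).

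The window of Dll1 is shown for the octamer ATGCAAAT (ATTTGCAT on the other strand), which POU factors are known to bind. The octamer was in 2 of 18 windows of Notch pathway genes, those of Dll1 and Nrarp, in 3 of 17 windows of radial glia genes, those of Sox1 and Tnc, in 1 of 19 windows of pluripotency genes, which were lower in NPC, and in 1.74% of all windows; capitals mark it.
Dll1, GRCm38.p6 chr17:15375774-15376073, minus strand: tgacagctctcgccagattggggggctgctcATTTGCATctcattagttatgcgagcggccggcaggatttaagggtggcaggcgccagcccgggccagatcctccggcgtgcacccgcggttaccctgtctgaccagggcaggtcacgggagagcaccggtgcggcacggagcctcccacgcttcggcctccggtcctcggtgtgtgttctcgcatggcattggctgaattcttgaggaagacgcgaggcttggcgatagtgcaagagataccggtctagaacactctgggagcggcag

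In the hedgehog pathway, which sets ventral fates and growth in the brain, the signal transducer Smo and the co-receptors Gas1 and Cdon were higher, and the effectors Gli1 and Gli2 lower. Smo, the signal transducer, had 429 and 500.1 CPM in NPC and 73.1 and 82.7 CPM in ES cells (2.59 ± 0.14). The co-receptors Gas1 and Cdon were higher by 6.02 ± 0.20 and 2.40 ± 0.19. The ligand gene Dhh, known from Schwann cells and testis, had 218 and 269 CPM in NPC and 2.41 and 1.05 CPM in ES cells (6.71 ± 0.24). Gli1, a target of the pathway as well as its effector, had 0.837 and 0.290 CPM in NPC, 2 reads in all, and a mean of 77.0 ± 16.98 CPM in ES cells (SD, n = 2), a ratio of 161 (95% counting interval 44.4 to 1329) in favour of ES cells. Gli2 was lower (-2.18 ± 0.28), and Ptch1, receptor and target, did not pass the test, with 20.1 and 31.3 CPM in NPC and 35.8 and 36.3 CPM in ES cells (-0.40 ± 0.22, adjusted p = 0.115); it was called lower without NPC replicate 2 (-0.93) or ES replicate 2 (-0.62). In all, 4 of 11 tested genes of the pathway were higher and 3 lower.

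The receptors and ligands of the EGF family differed by member, 6 of 15 tested FGF, EGF and PDGF genes being higher and 6 lower. Egfr, receptor of the EGF supplied in the NPC medium, had 149.9 and 124 CPM in NPC and 6.17 and 8.16 CPM in ES cells (4.28 ± 0.22). Erbb2, its partner, was higher by 1.83 ± 0.17. Erbb3, a neuregulin receptor, had 0 and 0.290 CPM in NPC, 1 read in all, and 49.4 and 53.5 CPM in ES cells. The EGFR ligands Areg and Tgfa were higher, by 4.25 ± 0.40 and 2.26 ± 0.31, and Hbegf and Ereg lower (-0.60 ± 0.15 and -2.36 ± 0.62) (log2 NPC minus ES); Ereg was not called without NPC replicate 2 (-1.93). Fgf4, the autocrine FGF of ES cells, had no read in NPC and 784 and 742 CPM in ES cells, at least 304-fold lower.

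WNT receptors differed by member as well. Fzd9 had 321 and 367 CPM in NPC and 4.38 and 6.32 CPM in ES cells (6.08 ± 0.20). Fzd1, Fzd3, Fzd8 and Fzd10 were higher by 4.78 ± 0.19, 2.88 ± 0.21, 2.07 ± 0.25 and 1.64 ± 0.16. Fzd7, the main frizzled receptor of ES cells, was lower, with 41.0 and 42.6 CPM in NPC and 243 and 274 CPM in ES cells (-2.61 ± 0.15). Among ligands, Wnt7a, a brain WNT, had 109 and 154 CPM in NPC and 2.25 and 1.84 CPM in ES cells (5.81 ± 0.26). The secreted antagonist Sfrp1 and the R-spondin receptor Lgr4 were lower (-3.36 ± 0.17 and -3.63 ± 0.20), and the feedback gene Axin2 was higher, with 25.1 and 35.9 CPM in NPC and 10.9 and 11.3 CPM in ES cells (1.51 ± 0.24). Over the list 13 of 35 genes were higher (37.1%) and 11 lower (31.4%), against 27.3% and 33.7% of all models.

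Of 29 tested genes of the BMP, TGF-beta and Nodal pathways 16 were lower and 7 higher. Nodal and its antagonists Lefty1 and Lefty2, which are also its targets, had no read in NPC; in ES cells Nodal had 185 and 218 CPM, Lefty1 115 and 113 CPM and Lefty2 187 and 191 CPM, at least 80.2-fold, 45.4-fold and 75.3-fold lower in NPC. Gdf3, a related ligand of ES cells, had 1 read in NPC and 399.5 and 359 CPM in ES cells. The inhibitory SMAD gene Smad6 was lower (-2.93 ± 0.49). The ligands Bmp7 and Gdf11 were higher, Bmp7 with 51.1 and 54.5 CPM in NPC and 2.53 and 4.21 CPM in ES cells (4.05 ± 0.30) and Gdf11 by 2.60 ± 0.27. In the LIF and JAK-STAT list, 4 of 10 genes were lower and the others were not called. Socs3, a feedback inhibitor induced by LIF, had 16.7 and 24.0 CPM in NPC and 262 and 299 CPM in ES cells (-3.68 ± 0.18), and Il6st (gp130), the shared receptor chain, 68.6 and 69.0 CPM in NPC and 156 and 147 CPM in ES cells (-1.14 ± 0.16). Jak1, the kinase bound to that chain, did not pass the test (0.10 ± 0.20, adjusted p = 0.695).

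**Figure D3:**
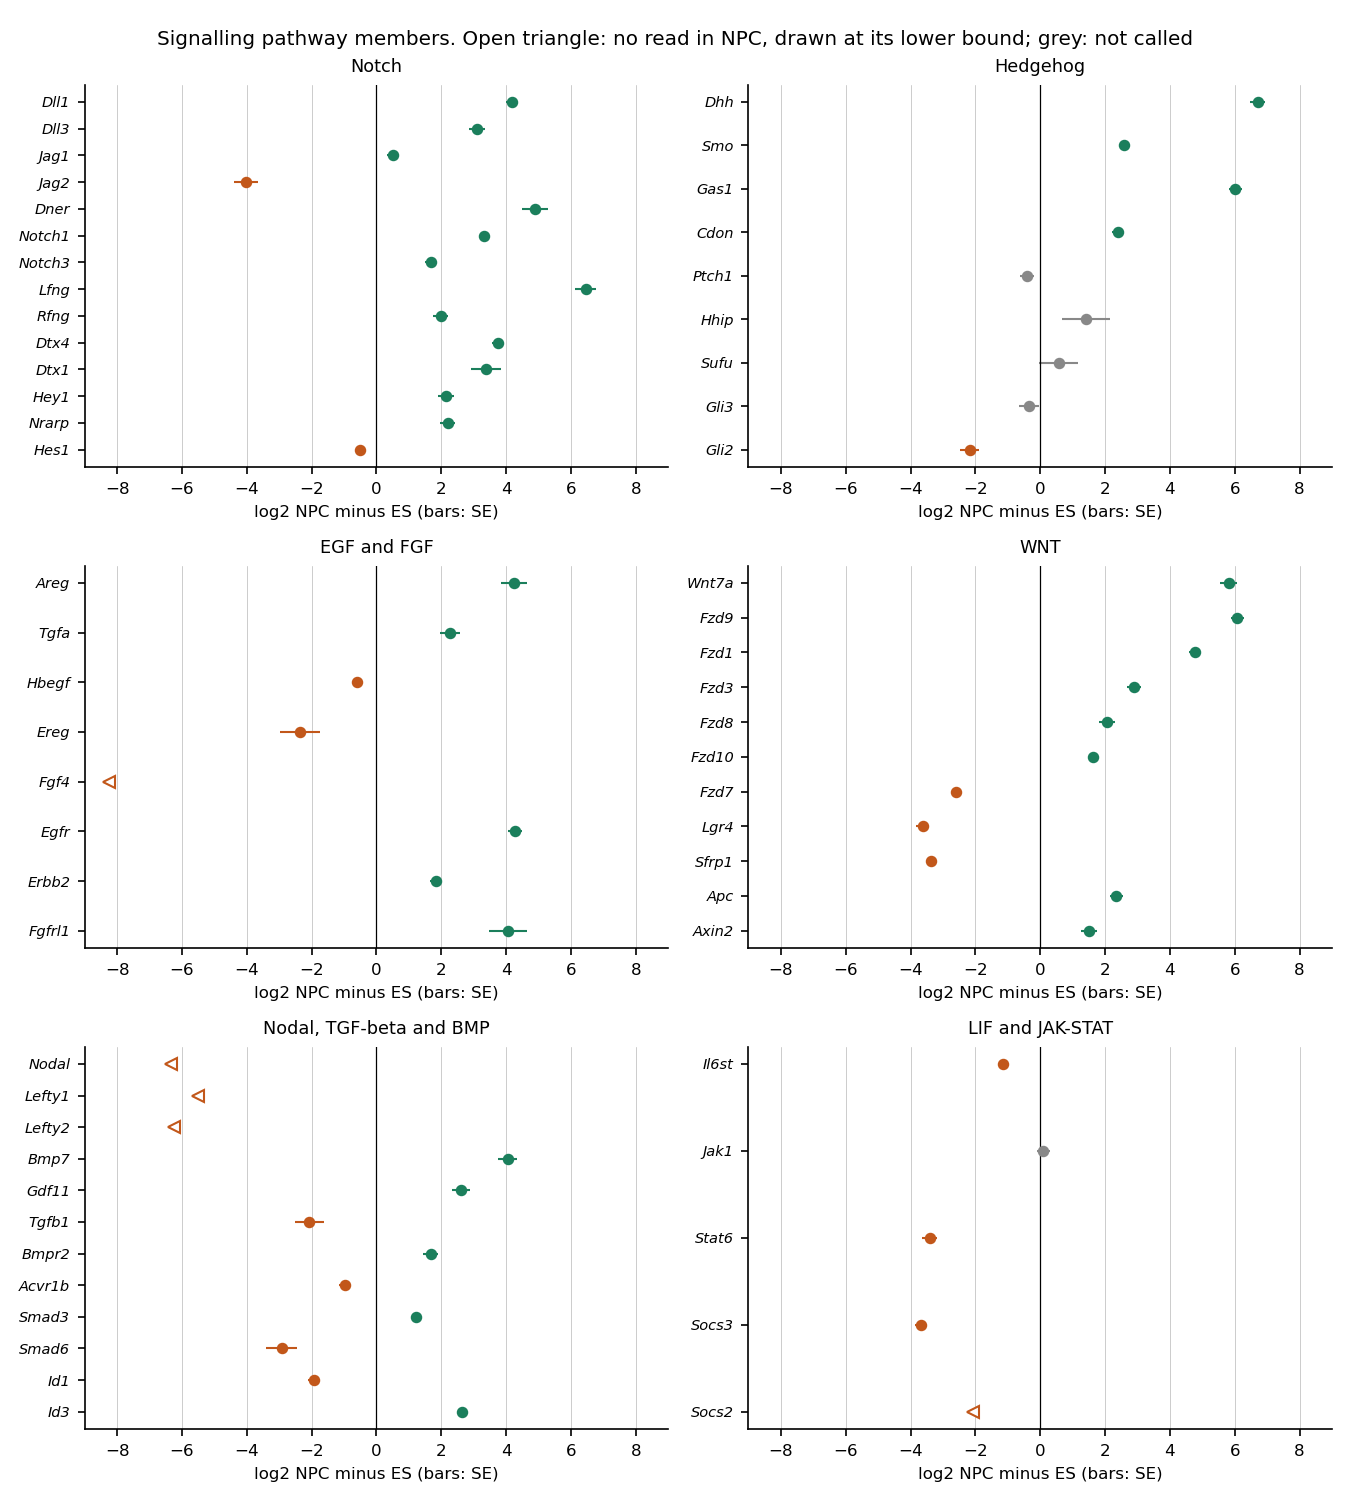
Log2 difference of NPC minus ES with its SE for members of 6 signalling pathways, ligands first and targets last; green was called higher, orange lower and grey was not called, and open triangles mark genes without a read in NPC at their lower bound. Delta ligands, Notch receptors, Smo, Egfr and most frizzled genes lie to the right, and Nodal, the Lefty genes, Fgf4, Jag2 and Socs3 to the left.

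Neuronal-type adhesion and guidance molecules were more often higher than lower in NPC. Of 17 tested protocadherin, FAT and immunoglobulin adhesion genes 12 were higher and 3 lower (median 2.31), the lower ones being Fat1 (-0.67 ± 0.14), Celsr1 (-0.76 ± 0.31) and L1cam, with 0 and 0.290 CPM in NPC and 4.04 and 3.69 CPM in ES cells. Of 26 tested guidance genes 17 were higher and 6 lower, and their CPM summed to 1733 and 2065 in NPC and to 1668 and 2027 in ES cells. Ncam1, the neural cell adhesion molecule, had 40.2 and 39.1 CPM in NPC and 0.112 and 0.263 CPM, 3 reads in all, in ES cells, a ratio of 284 (95% counting interval 95.6 to 1389). The protocadherin Pcdhgc3 had 409 and 512 CPM in NPC and 7.97 and 9.22 CPM in ES cells (5.76 ± 0.21), a value that may hold reads shared by the gamma cluster's common exons. Every tested plexin gene was higher; plexins are the receptors of semaphorins. The largest difference was that of Plxnb3, with 72.8 and 74.2 CPM in NPC and 0.505 and 0.263 CPM in ES cells (6.73 ± 0.36). The smallest was that of Plxna1 (0.55 ± 0.15), which was not called without NPC replicate 2 (0.29) or ES replicate 1 (0.30). The 4 tested ephrin receptors of the A class were lower. Epha2 had 98.8 and 107 CPM in NPC and 922 and 1144 CPM in ES cells (-3.31 ± 0.15), and Epha4 3.35 and 5.50 CPM in NPC and 58.7 and 49.8 CPM in ES cells (-3.42 ± 0.27). The secreted guidance genes Slit1 and Ntn4 were higher by 4.70 ± 0.39 and 4.52 ± 0.27, while Slit3 had no read in NPC and 6.62 and 7.11 CPM in ES cells.

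The brain's extracellular matrix is rich in chondroitin sulphate proteoglycans, and 13 of 20 tested genes of this list were higher in NPC and 5 lower. The core proteins neurocan and brevican were higher, Ncan with 1699 and 1953 CPM in NPC and 25.4 and 25.02 CPM in ES cells (6.16 ± 0.16), and Bcan with 198 and 284 CPM in NPC and 0.505 and 0.790 CPM in ES cells (8.26 ± 0.30). The sulphotransferases Chst7 and Chst2, which modify such chains, were higher too: Chst7 had 366 and 454 CPM in NPC and 1.96 and 3.95 CPM in ES cells (7.29 ± 0.24), and Chst2 375 and 407 CPM in NPC and 8.36 and 8.43 CPM in ES cells (5.51 ± 0.18). Tnc (tenascin C) was higher by 2.49 ± 0.14 and the heparan sulphate proteoglycan Sdc3 by 5.14 ± 0.16, whereas Gpc4 was lower (-0.97 ± 0.22).

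Oligodendrocyte precursor genes were mostly higher, while the astrocyte, myelin and neuronal lists held both directions. All but 1 of 10 tested oligodendrocyte precursor genes were higher; C1ql1 did not pass the test. Cspg4 (NG2) had 7.53 and 9.56 CPM in NPC and 0.225 and 0.527 CPM in ES cells (4.09 ± 0.65), and Sox10 6.70 and 9.56 CPM in NPC and 1.01 and 0.527 CPM in ES cells (2.96 ± 0.58). Of 9 tested astrocyte genes 5 were higher and 3 lower, and their CPM summed to 678 and 761 in NPC and to 649 and 832 in ES cells. Cst3 (cystatin C) had 413 and 451 CPM in NPC and 99.1 and 118 CPM in ES cells (2.01 ± 0.14), while Apoe, the astrocytes' lipid carrier, was lower in NPC, with 5.86 and 10.7 CPM there and 392 and 553 CPM in ES cells (-5.62 ± 0.23). Of 4 tested myelin genes 1, Cldn11, was higher and 3 were lower. Mbp, a major myelin protein gene, had 0.837 and 1.16 CPM in NPC and 3.99 and 6.06 CPM in ES cells, a difference of -1.90 ± 0.63 that was not called without NPC replicate 2 (-2.28).

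Of 15 neuronal differentiation genes 7 were higher and 5 lower in NPC. Gap43, a growth cone protein, had 323 and 308 CPM in NPC and 15.3 and 15.3 CPM in ES cells (4.34 ± 0.18). Several genes of young neurons had their higher level in ES cells: Stmn2 had 1 read in NPC and 106 and 101.1 CPM in ES cells, and Tubb3 had 35.2 and 36.2 CPM in NPC and 252 and 310.0 CPM in ES cells (-2.96 ± 0.17). The intermediate filament genes Ina and Nefl were lower (-2.81 ± 0.21 and -2.62 ± 0.23). Presynaptic genes divided too, with Cplx2 (5.63 ± 0.38) and Syp (2.82 ± 0.30) higher and Chga (-2.35 ± 0.29) lower. Rest, the repressor of neuronal genes, was itself lower in NPC, with 3.35 and 1.16 CPM there and 6.12 and 11.1 CPM in ES cells (-2.02 ± 0.56), a call lost without NPC replicate 2 (-1.26).

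Ion channels and receptors of the list were more often higher than lower, 12 of 19 channel genes (7 without NPC replicate 2) and 9 of 19 receptor genes being higher. Kcnd2, a potassium channel gene, had 18.4 and 34.2 CPM in NPC and no read in ES cells, at least 33.3-fold higher. The glial potassium channel Kcnj10 (Kir4.1) had 33.5 and 26.9 CPM in NPC and 2.75 and 2.37 CPM in ES cells (3.37 ± 0.34). The leak channels Kcnk1 and Kcnk5 were lower (-3.19 ± 0.26 and -2.16 ± 0.19). Chrna4, a nicotinic acetylcholine receptor subunit, had 98.8 and 119 CPM in NPC and 1.18 and 2.11 CPM in ES cells (6.09 ± 0.28), and the GABA-B receptor subunit Gabbr2 33.5 and 54.5 CPM in NPC and 0.337 and 0.790 CPM in ES cells (6.09 ± 0.42).

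The largest rises among named models with a mean of at least 10 CPM were led by Lrrc4b, a postsynaptic adhesion gene, with 1389 and 1602 CPM in NPC and 0.337 and 1.05 CPM in ES cells (11.04 ± 0.30). Ptn (pleiotrophin), a growth factor of neural progenitors, had 406 and 445 CPM in NPC and 0.337 and 0.263 CPM in ES cells (9.56 ± 0.26), and the GABA transporter Slc6a11 203 and 265 CPM in NPC and 0.225 and 0 CPM in ES cells (9.13 ± 0.32). Apln, the ligand of the apelin receptor, had 1088 and 1113 CPM in NPC and 2.98 and 3.42 CPM in ES cells (8.37 ± 0.19), and Mmp15, a membrane-bound matrix protease, 2367 and 2809 CPM in NPC and 11.3 and 15.0 CPM in ES cells (7.66 ± 0.19). Hepacam, a glial adhesion gene, and Fbn2 (fibrillin 2) were higher by 8.90 ± 0.30 and 8.12 ± 0.27. Also among them were the peptide hormone receptor gene Calcrl, with 37.7 and 33.9 CPM in NPC and 1 read in ES cells, and its accessory protein gene Ramp1, with 93.8 and 131 CPM in NPC and 0.112 and 0.790 CPM in ES cells (7.89 ± 0.40). Among the largest falls were those of Trh, with no read in NPC and 307 and 329 CPM in ES cells (at least 127-fold lower) and of B3gnt7, a keratan sulphate enzyme, with no read in NPC and 329 and 362 CPM in ES cells (at least 138-fold lower).

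Lipid genes were more often higher than lower in NPC, and several glycolysis genes were lower. Of 35 fatty acid and lipid carrier genes 17 were higher and 7 lower. Acsbg1, a brain acyl-CoA synthetase, had 1004 and 1253 CPM in NPC and 1.18 and 1.58 CPM in ES cells (9.56 ± 0.27). The desaturase genes Scd1, Scd2, Fads1 and Fads2 were all higher, by 2.51 ± 0.14, 2.80 ± 0.13, 2.85 ± 0.13 and 3.79 ± 0.16, and Fasn, which makes palmitate, by 1.09 ± 0.15. Fatty acid binding proteins differed by member: Fabp5 had 782 and 902 CPM in NPC and 98.2 and 99.3 CPM in ES cells (3.09 ± 0.13), and Fabp3 1.67 and 0.869 CPM in NPC and 320.4 and 370.3 CPM in ES cells (-8.03 ± 0.29). Of the dehydrogenases of fatty acid oxidation, Acadvl, Acadl and Acads (very long, long and short chains) were higher (1.97 ± 0.14, 1.88 ± 0.17 and 1.42 ± 0.15). Acadm (medium chains) was lower (-1.64 ± 0.18), so the direction did not follow chain length.

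Of 20 glycolysis and lactate genes 12 were lower and 2 higher. Hk2, the first enzyme's inducible form, had 45.2 and 62.0 CPM in NPC and 892 and 936 CPM in ES cells (-4.03 ± 0.16), and the glucose transporter Slc2a1 82.0 and 89.5 CPM in NPC and 787 and 1054 CPM in ES cells (-3.41 ± 0.16). Slc2a3 and the lactate transporter Slc16a1 were lower (-2.97 ± 0.22 and -2.17 ± 0.14). Within the pathway Gapdh and Pgam1 were lower (-0.93 ± 0.15 and -1.04 ± 0.13), and Gpi1 and Tpi1 were slightly higher, by 0.50 ± 0.14 and 0.30 ± 0.13. Gpi1 was not called without ES replicate 1 (0.28), and Tpi1 was not called without NPC replicate 2 (0.14), ES replicate 1 (0.12) or ES replicate 2 (0.21), nor under the replicate block (0.30). Tdh, the threonine dehydrogenase on which mouse ES cells depend, had no read in NPC and 1284 and 1314 CPM in ES cells, at least 517-fold lower. Cth, of cysteine synthesis, and Odc1, of polyamine synthesis, were lower (-5.25 ± 0.21 and -2.74 ± 0.14), while Phgdh, the first enzyme of serine synthesis, had 1506 and 1730 CPM in NPC and 457 and 501 CPM in ES cells (1.76 ± 0.14). Oxidative phosphorylation genes differed less, 18 of 67 being higher and 10 lower (21 without ES replicate 2), with all differences within -1.02 to 1.35 (log2 NPC minus ES).

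Genes that build ribosomes were lower almost throughout. Of 77 listed ribosome biogenesis genes 62 had a named model and 59 were tested: 51 were lower, 40 of them by at least 2-fold, and 1, Imp3, was higher (0.49 ± 0.14), a call lost without NPC replicate 2 (0.16) or ES replicate 2 (0.26). The median was -1.26. Cirh1a (UTP4), a processome protein, had 85.4 and 93.9 CPM in NPC and 778 and 685 CPM in ES cells (-3.01 ± 0.14), and Heatr1, its partner, 20.9 and 25.5 CPM in NPC and 193 and 147 CPM in ES cells (-2.82 ± 0.20). Nop2, an rRNA methyltransferase, was lower (-1.16 ± 0.14). Ribosomal proteins themselves differed less: 32 of 70 cytosolic ribosomal protein genes were lower and 3 higher, with a median of -0.38 (-0.60 without NPC replicate 2 and -0.67 without ES replicate 2), and 32 of 60 mitochondrial ones were lower and 8 higher (1 without NPC replicate 2, 3 without ES replicate 1, 5 without ES replicate 2). The variant genes Rpl10l and Rpl39l had no read in NPC; Rpl10l had 37.0 and 43.2 CPM and Rpl39l 19.3 and 18.4 CPM in ES cells, at least 15.97-fold and 7.51-fold lower in NPC. Rps4x stood apart from the common ribosomal proteins, with 13.4 and 20.9 CPM in NPC and 743 and 976 CPM in ES cells (-5.52 ± 0.20); ribosomal protein genes have many near-identical copies between which the counting could split reads, so such single values are uncertain. In promoter windows of the biogenesis list, the E-box CACGTG, which MYC is known to bind, was in 11 of 54 (20.4%), against 7.15% of all windows, and the ETS-type CCGGAAGT (ACTTCCGG on the other strand) in 13 (24.1%), against 3.89%.

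Replication genes were also lower, 26 of 39 tested, with 2 higher and a median of -1.17. Mcm2 and Mcm3, subunits of the replicative helicase, were lower (-1.44 ± 0.13 and -1.86 ± 0.13), and Dna2, a nuclease of Okazaki fragments, had 5.02 and 3.19 CPM in NPC and 34.3 and 39.0 CPM in ES cells (-3.21 ± 0.33). The E2F-type elements TTTGGCGC and TTTCCCGC (GCGCCAAA and GCGGGAAA on the other strand) were each in 5 of 42 windows of this list (11.9%), against 0.514% and 1.07% of all windows. Of 38 repair genes 18 were lower and 3 higher. Msh6, of mismatch repair, had 79.5 and 88.4 CPM in NPC and 784 and 707 CPM in ES cells (-3.13 ± 0.17). Mitosis genes were less uniform, with 19 of 49 lower, 6 higher (3 without either NPC library) and a median of -0.24 (-0.68 without NPC replicate 2 and -0.49 without ES replicate 2); Bub1b, of the spindle checkpoint, was lower (-1.95 ± 0.14) and Cenpe, a kinetochore motor, higher (1.26 ± 0.24).

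**Figure D4:**
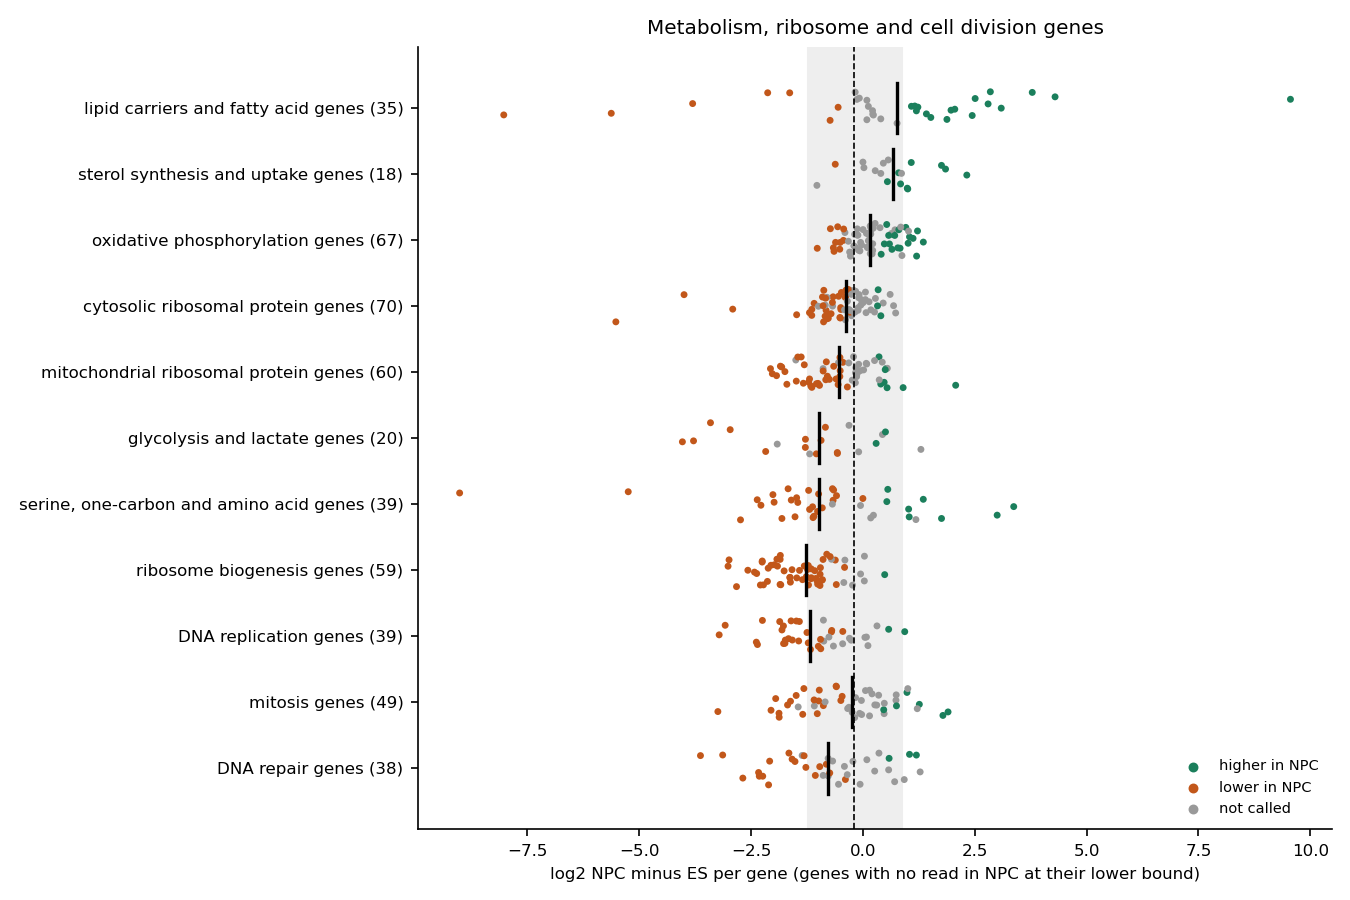
Log2 difference of NPC minus ES of each tested gene of 11 lists (green higher, orange lower, grey not called), with the list's median as a black bar; the dashed line is the median of all models tested, -0.20, and the shaded band the span between their quartiles. Ribosome biogenesis (median -1.26) and replication genes (-1.17) lie to the left of that line, and lipid genes (0.76, or 0.49 without ES replicate 2) to its right.

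The cyclins that drive successive phases differed in direction. The D-type cyclins of the first gap phase were higher, Ccnd1 with 3324 and 3164 CPM in NPC and 355 and 343 CPM in ES cells (3.22 ± 0.14), and Ccnd2 with 706 and 717 CPM in NPC and 42.8 and 42.4 CPM in ES cells (4.05 ± 0.15). Ccne1, of entry into S phase, had 147 and 149 CPM in NPC and 877 and 904 CPM in ES cells (-2.58 ± 0.14). Ccna2 and Ccnb2 were lower (-1.17 ± 0.13 and -1.83 ± 0.14). The cyclin D kinase inhibitors Cdkn2c and Cdkn2b were higher: Cdkn2c (p18) had 85.4 and 105 CPM in NPC and 1.18 and 2.90 CPM in ES cells (5.74 ± 0.29), and Cdkn2b (p15) 54.4 and 71.6 CPM in NPC and 9.65 and 10.8 CPM in ES cells (2.65 ± 0.23). Cdk4, their target, did not pass the test (0.19 ± 0.13, adjusted p = 0.207). Mybl2 (B-MYB), a factor of cycling cells that is abundant in ES cells, had 113 and 138 CPM in NPC and 1639 and 1927 CPM in ES cells (-3.81 ± 0.15). Over the list 13 of 31 genes were higher and 10 lower.

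RNA-binding proteins of ES cells and of neural cells were each high in one group. Lin28a, which blocks maturation of let-7 microRNAs, had no read in NPC and 1231 and 1172 CPM in ES cells, at least 478-fold lower. Igf2bp1, an mRNA-binding protein and let-7 target, had 2.51 and 1.16 CPM in NPC and 1463 and 1495 CPM in ES cells (-9.72 ± 0.25), and Trim71 (LIN41), another such target, 0 and 3.19 CPM in NPC and 705 and 822 CPM in ES cells (-8.21 ± 0.27). L1td1, an RNA-binding protein of pluripotent cells, had no read in NPC and 137 and 122 CPM in ES cells (at least 51.6-fold lower). On the other side the neuronal splicing factors were higher, Nova1 with 40.2 and 40.3 CPM in NPC and 3.14 and 2.63 CPM in ES cells (3.64 ± 0.30) and Nova2 with 83.7 and 60.3 CPM in NPC and 4.83 and 5.79 CPM in ES cells (3.72 ± 0.28). Msi1 (Musashi 1), a progenitor marker, had 30.1 and 33.0 CPM in NPC and 2.64 and 5.53 CPM in ES cells (3.13 ± 0.32). Qk, which acts in glial splicing, was higher by 2.85 ± 0.36, and Esrp2, an epithelial splicing factor, had no read in NPC and 4.49 and 5.53 CPM in ES cells. In all, 15 of 34 tested genes of this list were lower and 7 higher.

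Transcripts at microRNA loci differed too. These genes were picked after their values were seen, and total RNA counts reads on hairpins and primary transcripts, not mature microRNAs. The model of Mir290, the first hairpin of the cluster that supplies most microRNAs of mouse ES cells, lies at mm9 chr7:3218627-3218709; it had no read in NPC and 35.6 and 32.9 CPM in ES cells, at least 13.6-fold lower. The model that follows it, named LOC100303645 (mm9 chr7:3218785-3221016), had no read in NPC and 678 and 655 CPM in ES cells, at least 265-fold lower. A separate gene farther upstream, AU018091, had no read in NPC and 134 and 139 CPM in ES cells. Whether its RNA has any part in the microRNA precursor was not tested. Mir17hg, named for the miR-17 cluster, whose RefSeq span in GRCm38.p6 does not include the hairpins Mir17 and Mir20a, had 8.37 and 8.11 CPM in NPC and 25.9 and 31.6 CPM in ES cells (-1.75 ± 0.29). C130071C03Rik, whose RefSeq span in GRCm38.p6 holds the hairpin Mir9-2, was higher, with 11.7 and 15.9 CPM in NPC and 0.168 and 0.527 CPM in ES cells (4.90 ± 0.59); miR-9 is a microRNA of neural progenitors. The RefSeq mature sequences are shown with the seed, bases 2 to 8, in capitals, to set the groups side by side: miR-291a-3p, miR-294-3p and miR-295-3p share one seed, and miR-290a-3p and miR-291b-3p differ from it in its last base. The seed of miR-17-5p holds the same run of letters moved by 1 base, and that of miR-9-5p is unlike both.
miR-290a-3p: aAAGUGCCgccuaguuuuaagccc
miR-291a-3p: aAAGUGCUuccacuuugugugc
miR-291b-3p: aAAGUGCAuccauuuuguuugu
miR-294-3p: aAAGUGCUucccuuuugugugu
miR-295-3p: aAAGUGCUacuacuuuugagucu
miR-17-5p: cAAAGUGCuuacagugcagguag
miR-9-5p: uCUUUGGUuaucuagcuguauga

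Of 21 tested long noncoding RNAs 8 were higher (4 without NPC replicate 2) and 10 lower. Xist, the RNA that coats the inactive X chromosome of females, had 62.8 and 36.2 CPM in NPC and 0.0561 and 0 CPM in ES cells, 1 read in all, a ratio of 930.4 (95% counting interval 165 to 36928). Eif2s3y, a gene of the Y chromosome, was found in both groups, with 7.53 and 7.82 CPM in NPC and 6.23 and 6.32 CPM in ES cells (0.29 ± 0.33, adjusted p = 0.44). Tsix overlaps Xist on the other strand, and the strand setting of the counts is not given in the sources used here. Malat1, a nuclear RNA, had 3164 and 2838 CPM in NPC and 1164 and 1064 CPM in ES cells (1.43 ± 0.13). Peg13, a brain RNA of an imprinted cluster, was higher by 3.77 ± 0.21. Terc, the RNA template of telomerase, had 31.8 and 55.3 CPM in NPC and 369 and 381 CPM in ES cells (-3.002 ± 0.19). Meg3, an imprinted noncoding RNA beside Dlk1, had no read in NPC and 15.3 and 15.0 CPM in ES cells, at least 6.04-fold lower. Of 13 tested imprinted genes 7 were lower, among them Phlda2 (no read in NPC, 137 and 152 CPM in ES cells), Impact (-2.98 ± 0.19) and Igf2r (-1.24 ± 0.14), and 3 higher, Peg12 (5.04 ± 0.19), Mest (2.24 ± 0.49) and Ndn (1.98 ± 0.17).

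Chromatin genes were found in both directions, as were models as a whole. Of 26 tested Polycomb and trithorax genes 11 were lower and 6 higher. Cbx7, the main chromobox reader of ES cells, had 1.67 and 2.61 CPM in NPC and 28.2 and 22.1 CPM in ES cells (-3.33 ± 0.33), and its relative Cbx8 35.2 and 40.0 CPM in NPC and 3.54 and 4.21 CPM in ES cells (3.27 ± 0.29). Eed, a core subunit of the H3K27 methyltransferase complex, and Rybp were lower (-2.52 ± 0.19 and -3.17 ± 0.19), and E130012A19Rik (now Epop), an accessory of that complex in ES cells, had 25.1 and 26.7 CPM in NPC and 441 and 551 CPM in ES cells (-4.23 ± 0.18). Among the BAF remodeller's subunits, Dpf1, known from neural forms of the complex, had 153 and 194 CPM in NPC and 35.3 and 32.7 CPM in ES cells (2.36 ± 0.15). Smarcd3 had 108 and 126 CPM in NPC and 20.3 and 20.8 CPM in ES cells (2.51 ± 0.19). Actl6a (BAF53A) was lower (-1.37 ± 0.14). The remodeller list as a whole held 10 higher and 9 lower genes of 31. Of 16 tested DNA methylation genes 10 were lower (6 without NPC replicate 2) and 4 higher; Gadd45b (-2.66 ± 0.24) and Trim28 (-1.22 ± 0.13) were among the lower. Tet3, a dioxygenase of 5-methylcytosine, had 112 and 117 CPM in NPC and 13.8 and 20.0 CPM in ES cells (2.83 ± 0.18); Zfp57, which keeps imprints methylated, was lower (-4.90 ± 0.35). Dppa3 had no read in NPC and 58.0 and 45.8 CPM in ES cells. Of the histone enzymes Hdac5 was higher (3.98 ± 0.51), and Hdac1 lower, with 82.9 and 88.9 CPM in NPC and 408 and 357 CPM in ES cells (-2.14 ± 0.14).

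**Figure D5:**
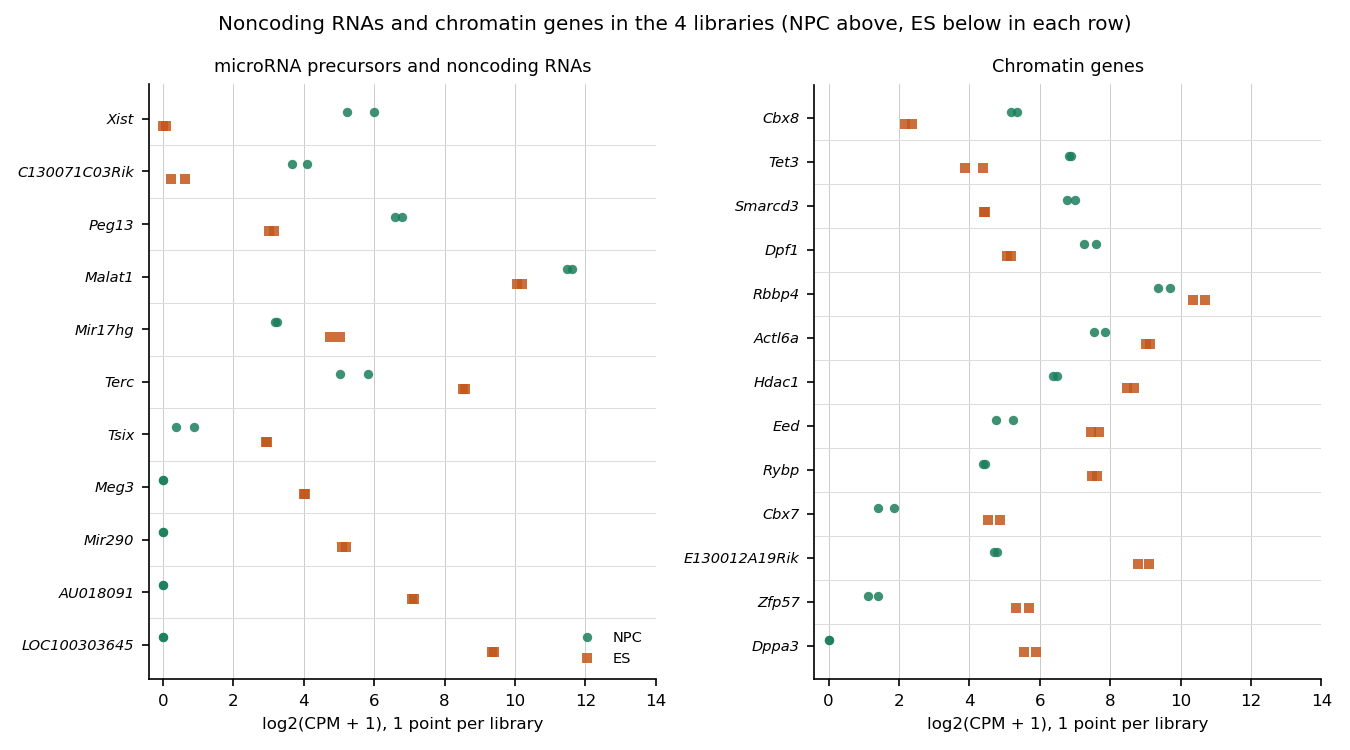
Levels in the 4 libraries (log2 of CPM plus 1) of models at microRNA loci, noncoding RNAs and AU018091 (left) and chromatin genes (right). Green circles are NPC and orange squares ES cells, 1 point per library. Mir290, LOC100303645 and AU018091 lie at 0 in NPC, and Xist, with 62.8 and 36.2 CPM in NPC, near 0 in ES cells.

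Tubulin isotypes differed in direction as well. Tubb2a had 951 and 1099 CPM in NPC and 52.7 and 64.5 CPM in ES cells (4.14 ± 0.15), Tubb2b and Tuba1a, which are abundant in the developing brain, were higher by 2.57 ± 0.13 and 2.09 ± 0.13, and Tubb4 (now Tubb4a) by 5.20 ± 0.27. Tuba4a had 4.19 and 3.48 CPM in NPC and 639 and 754 CPM in ES cells (-7.48 ± 0.23). Tubb2c (now Tubb4b) was lower (-0.91 ± 0.13). Tubb5, the general isotype, did not pass the test (0.04 ± 0.12, adjusted p = 0.787). Isotypes are alike in sequence, so part of their reads may have been divided between them. In the lysosomal list, 15 of 38 genes were higher (9 without NPC replicate 2) and 14 lower, the glycosidase Manba with 3.35 and 3.19 CPM in NPC and 149 and 143 CPM in ES cells (-5.40 ± 0.23) and the sphingomyelinase Smpd1 with 62.8 and 66.9 CPM in NPC and 14.1 and 16.6 CPM in ES cells (2.105 ± 0.20). Cx3cl1, the chemokine fractalkine, was the cytokine gene with the largest rise, at 327 and 399.5 CPM in NPC and 6.40 and 7.11 CPM in ES cells (5.74 ± 0.20).

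Of p53 target and apoptosis genes 12 were higher and 8 lower of 29 (5 lower without NPC replicate 2). The survival genes Bcl2 and Mcl1 went apart, Bcl2 having 10.9 and 8.98 CPM in NPC and 0.954 and 0 CPM in ES cells (3.37 ± 0.60), and Mcl1 309 and 324 CPM in NPC and 1546 and 1587 CPM in ES cells (-2.30 ± 0.13).

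Markers of other cells that the cultures could hold were read over whole lists. Feeder fibroblast markers (13 of 17 tested) summed to 183 and 226 CPM in NPC, against 1288 and 1478 CPM in ES cells; 3 were higher in NPC, Fbln1 (1.22 ± 0.30), Thy1 (0.98 ± 0.18) and Col5a1 (0.89 ± 0.15), and 8 were lower in NPC, led by the contractile genes Tagln (-7.71 ± 0.26) and Acta2 (-5.24 ± 0.19) and the collagen gene Col1a1, with 0.837 and 1.45 CPM in NPC and 37.2 and 43.5 CPM in ES cells. Trophoblast markers (5 of 11 tested) summed to 0.837 and 0.290 CPM in NPC and 351 and 399 CPM in ES cells, nearly all of it from the keratins Krt8, Krt18 and Krt19, which other epithelial cells share. Primitive endoderm markers summed to 105 and 89.5 CPM in NPC and 373 and 402 CPM in ES cells. Only 2 of 14 microglia markers had a named model, and they summed to 0 and 0.579 CPM in NPC and 1.63 and 2.37 CPM in ES cells. The 3 of 11 endothelial markers with a model summed to 4.19 and 4.35 CPM in NPC and 5.11 and 5.27 CPM in ES cells. The 3 of 7 pericyte and mural markers with a model summed to 122 and 167 CPM in NPC and 85.8 and 106 CPM in ES cells; Notch3 and Cspg4, which neural progenitors and oligodendrocyte precursors also use, were higher, and Des, with 0 and 1.74 CPM in NPC and 45.9 and 57.4 CPM in ES cells, lower (-5.07 ± 0.39). The ependymal gene Foxj1 had 3.35 and 9.85 CPM in NPC and 0.505 and 0.527 CPM in ES cells (3.37 ± 0.61), a call lost without NPC replicate 2 (2.19). The part that feeder, pericyte or other cells have in the levels of either group was not tested.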

How the data were processed

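RNA was ribosome-depleted total RNA sequenced as stranded paired-end libraries, per the labels' protocols. The deposited files hold raw counts of reads per UCSC transcript model of mm9, made by the authors with TopHat2 2.1.0, Bowtie and HTSeq among the tools named in the submitters' processing notes; the strand setting of the counting is not given in the sources used here. Spike-in and summary entries were left out. Gene names and mm9 positions came from the authors' table of normalized expression, of which 10 per-sample columns were not used. CPM was computed here. The SE was computed from the F value of the test and a log2 difference fitted almost without a prior count. The printed log2 difference used a prior count of 2, so the SE is approximate for genes with few reads in a group. The counts of all 10 RNA libraries in 5 groups were fitted with edgeR 4.0.16 (R 4.3.3, limma 3.58.1; TMM scaling, filterByExpr, quasi-likelihood F test, prior count 2), which tested 11031 models and left out 44388; the common biological coefficient of variation was 0.117 with 5 residual degrees of freedom. Calls needed a Benjamini-Hochberg adjusted p under 0.05 over all models tested. The calling steps were tested on simulated data with 200 changed models.

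The contrast's members and the 54 gene lists were chosen with earlier results of these data known. Of each symbol the model with the highest mean over the 10 libraries was used, and 38 older symbols were matched through RefSeq. Genes named were, per list, up to the 5 with the largest differences in each direction and the 3 most abundant, every tested member of lists with at most 14, family members of opposite direction, and the 30 largest changes in each direction with a mean of at least 10 CPM; others are said to be chosen after their values were seen. Promoters and microRNAs are RefSeq sequences of GRCm38.p6, and mm9 positions were not converted. Alternatives were DESeq2 1.42.0, other scaling and filters, summed models, the 4 libraries alone, a replicate block, and each library left out. Replicate numbers are not stated to pair the samples. Deviations of NPC and ES replicates of the same number correlated at -0.016, and whether they share a batch was not tested. Some genes covered by the naming rule are not reported here.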

Additional observations from a re-analysis of the deposited data

How the results depend on the processing

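With 1 library left out, counts of models higher in NPC lay between 1968 without NPC replicate 2 and 2907 without NPC replicate 1, against 3013 with all libraries, and counts of models lower between 2903 without NPC replicate 2 and 4338 without ES replicate 2, against 3716. The first was the only total that moved by over 1.5 times; the cause was not tested. Without both the NPC and the ES library with the largest share of reads outside models, a choice made after seeing the data, 2736 were higher and 3592 lower. DESeq2 called 2825 higher and 3236 lower. With the replicate number as a block the counts were 2948 and 3665. The block ended 14 of the calls on named genes, and the cause was not tested. The direction of 4 named genes turned: Srebf2 (-0.62) was 0.025 with the models of a symbol summed, Atp5l (-0.73) was 0.018 without ES replicate 1 and -1.35 without ES replicate 2, and Zfp688 and Zfp784 were -0.18 and -0.45 without NPC replicate 2 and 1.79 and 1.41 without NPC replicate 1. Of the calls on named genes 8 were lost with RLE scaling, 86 without ES replicate 1 and 144 without NPC replicate 2. The median of all models moved between -0.09 and -0.39. The medians of 10 lists, none of them printed above, changed sign among models with a mean of at least 20 counts: astrocyte, bHLH, hedgehog, WNT, neurotransmitter receptor, remodeller, cytokine, lysosome, cilium and pericyte. With the 4 libraries alone 8 changed sign, among them the NFI, ZIC, GLI and KLF factors and the connexins, and 7 did so without ES replicate 2. The depth of NPC replicate 1 sets the floor of 2.51 CPM, below which a gene without a read in NPC cannot be told from a low level.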
